A study of Mus musculus with 7 samples.

Results

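Notch signaling passes information between touching cells. A ligand on one cell, here Dll1, Jag1 or Jag2, binds a receptor on its neighbor, here Notch1, Notch2 or Notch3, and proteases then release the intracellular part of the receptor, which enters the nucleus and, with the DNA-binding protein Rbpj, turns on genes such as Hes1, Hey1 and Heyl. These targets encode basic helix-loop-helix repressors, and Numb encodes an adaptor protein that restrains the receptors. In skeletal muscle the pathway is known for holding muscle stem cells in an undifferentiated state and for restraining the differentiation of myoblasts.

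These 10 genes of the pathway were followed in C2C12 myotubes with and without electrical pulse stimulation (EPS), which makes cultured myotubes contract. They were taken by name from the 26607 listed genes, and all 10 were found and tested, each with a mean of at least 1 CPM (reads of a gene scaled to the total reads of its library). C2C12 is a mouse myoblast line that forms myotubes when serum is reduced, so every library comes from 1 line without nerve or other tissue. The control group is 3 libraries of untreated myotubes, numbered 1, 3 and 4, and the EPS group is 4 libraries, numbered 1 to 4, of myotubes pulsed at 1 Hz for 24 h from 3 days of differentiation and rested for 1 h. The labels give no genotype, and do not say that the libraries of a group are separate cultures, so the p-values measure the spread between these libraries, which may be technical.

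The libraries held between 16616917 and 22120641 reads. Control replicate 4 stood apart, where 359 genes had 1 to 5 reads, as against 2670 to 3181 such genes elsewhere. The differentiated myotube markers were high in all 7 libraries, with a summed level over 10 genes of 17556 to 20765 CPM in the control and 11962 to 18656 CPM in the EPS group, and Ttn, the giant spring of the sarcomere, was at 3628 to 7651 CPM. Markers of endothelium summed to at most 1.54 CPM and those of leukocytes to at most 2.76 CPM, with Emcn, Cd3e and Adgre1 at 0 in all 7. In bulk RNA, fewer cells that express a gene and less RNA of it per cell cannot be told apart.

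Between the control and EPS groups, 1 of the 10 genes, Jag1, was called as lower with EPS, where a call needs over 2-fold and an unadjusted P under 0.01. Over the 19144 genes tested, 1.41% were called in either direction and 0.439% as lower. After the limma p-values were adjusted over all genes (Benjamini-Hochberg), 0 of the 10 genes had an adjusted p under 0.05, as against 0.141% of all genes, but 1, again Jag1, had in edgeR with TMM scaling and in DESeq2 on recovered reads, where 1.51% and 2.6% of all genes had. At an unadjusted P under 0.05, Jag1, Jag2 and Heyl were lower, 3 of the 10 genes, where 3.21% of all genes were. This count was 1 (Jag1) without control replicate 3, 2 without EPS replicate 4 and 4 without control replicate 4 or EPS replicate 2, with 2.26% to 3.97% of all genes lower in these settings. It was 5, with Dll1 and Hes1, in edgeR with TMM scaling and in DESeq2, where 5.95% and 5.42% of all genes were lower. In edgeR without TMM it was 3, where 4.25% were. In limma it was also 5 with quantile normalization, with median-of-ratios scaling and with the replicate number as a block. In these settings 4.98%, 4.77% and 2.98% of all genes were lower. The groups did not overlap in 2 of the 10 genes, Jag1 and Jag2, both lower with EPS, against 2.85% of all genes. The log2 fold change, EPS minus control on the log2(CPM + 1) scale, which understates changes of low genes, was below 0 in 9 of the 10 genes, where it was in 36.7% of all genes, and the median of the 10 was -0.40 against 0.04 over all genes tested. Notch2 was the exception. Among cell-state markers it was also below 0 in 9 of 10 genes of differentiated myotubes (median -0.45) and in 8 of 9 genes of undifferentiated myoblasts (median -0.43).

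**Figure D1:**
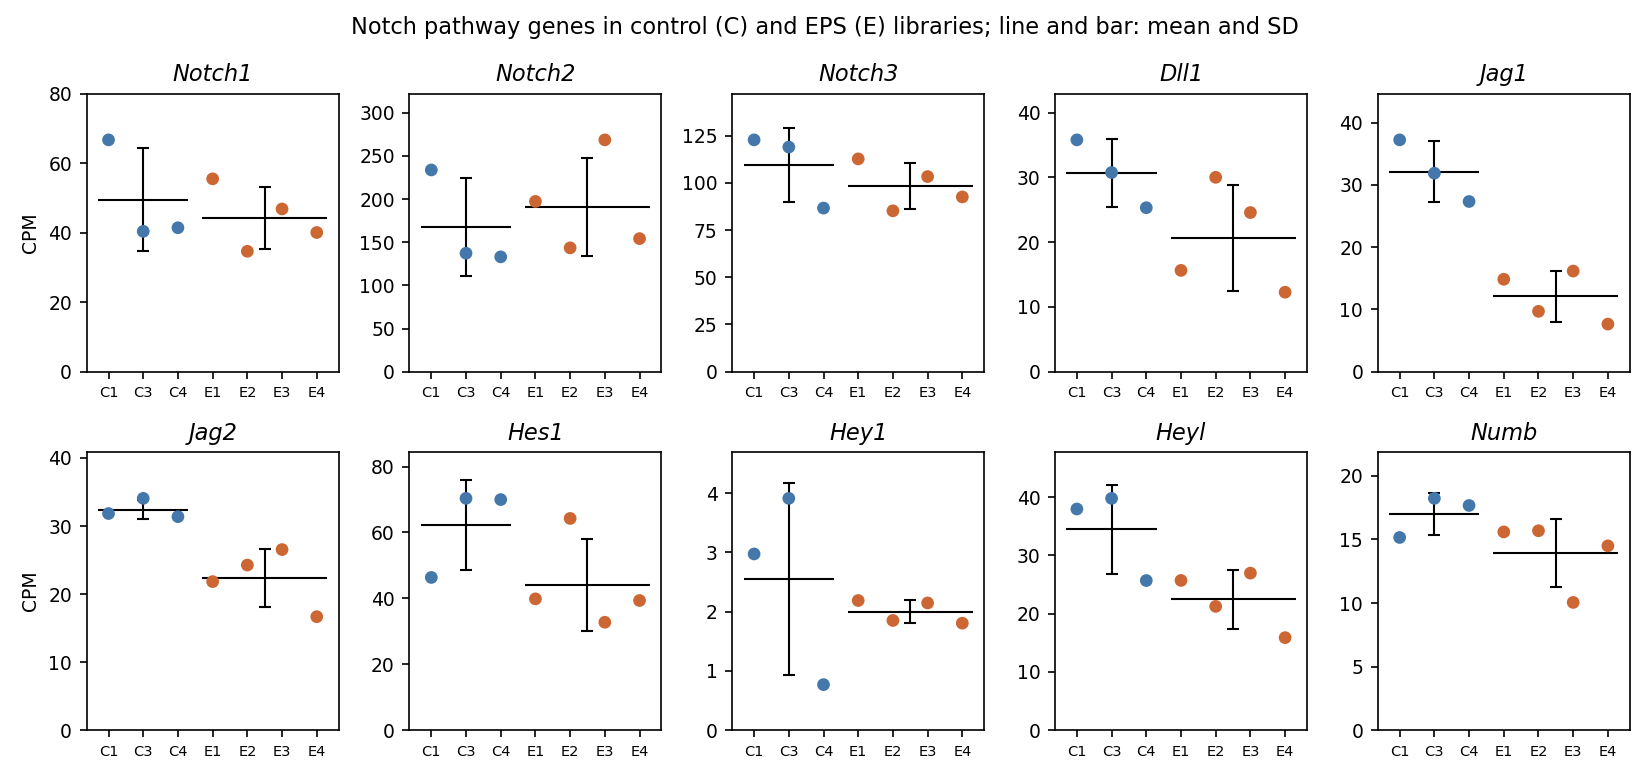
Each panel plots 1 gene in CPM, with 1 point per control library (C1, C3, C4) and per EPS library (E1 to E4), and the mean with its SD as a line and bar. Jag1 and Jag2 are the genes in which every EPS point lies below every control point.

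The one call was among the ligands. Jag1 (ENSMUSG00000027276.7), on the minus strand of chromosome 2 of GRCm38 from 137081456 to 137116644, encodes the ligand Jagged1. The 126 bases upstream of its annotated start are shown because it is the one member called. They were read from RefSeq on GRCm38.p6 and lie at chr2:137116645-137116770, on the strand of the gene and beyond the starts that both RefSeq and GENCODE give.

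Jag1: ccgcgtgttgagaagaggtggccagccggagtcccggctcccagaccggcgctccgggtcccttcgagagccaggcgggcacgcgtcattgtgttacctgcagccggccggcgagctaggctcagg

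The stretch is 70.6% G and C. On either strand it holds no GC box (GGGCGG), no CCAAT box and no TATA box (TATAAA), so no base is in capitals. In the 250 bases before each RefSeq start, TGGGAA, the core of the sequence that Rbpj binds, was found on either strand in 0 of 10 windows of the 7 members that the table holds, which are Notch1, Notch2, Notch3, Dll1, Jag1, Jag2 and Numb. It was found in 21.6% of all 32851 windows of this length. CACGTG, a site of basic helix-loop-helix factors, was in 0 of the 10 windows and in 6.02% of all windows. The GC box was in 6 of the 10 windows and in 32.7% of all windows. The CCAAT box was in 3 of the 10 and in 33.8% of all windows, and the TATA box in 1 and in 12.4%. The letters were searched within these windows only.

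Jag1 was at 37.3, 31.9 and 27.4 CPM in control replicates 1, 3 and 4. In EPS replicates 1 to 4 it was at 14.8, 9.69, 16.2 and 7.65 CPM. The highest EPS library was therefore well under the lowest control library. The mean was 32.2 ± 4.96 CPM in the control (SD, n = 3) and fell 2.66-fold with EPS, to 12.1 ± 4.07 CPM (SD, n = 4). This is -1.39 on the log2 scale (95% interval -2.01 to -0.76, standard error 0.28), with an adjusted p of 0.0973 in limma. It ranked 149th by P among the genes tested. The exact two-sided permutation test gave p = 0.0286, the smallest that 3 libraries against 4 allow. These levels rest on 530 to 639 reads in the control libraries and 144 to 354 in the EPS libraries. Jag1 was called with every library left out in turn, and the adjusted p over the alternatives ran from 0.000142 in DESeq2 to 0.51 in limma with a replicate block, which compares only the 6 libraries whose number occurs in both groups.

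Jag2 (ENSMUSG00000002799.6), on the minus strand of chromosome 12 from 112907819 to 112929776, encodes the related ligand Jagged2. It was at 31.8, 34.1 and 31.4 CPM in the control libraries and at 21.8, 24.3, 26.5 and 16.7 CPM in the EPS libraries. The groups did not overlap, and the control libraries lay close together. On the log2 scale the difference was -0.54 (95% interval -0.97 to -0.11, standard error 0.19, adjusted p = 0.311 from limma), which is under 2-fold, and the exact permutation test gave p = 0.0571.

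Dll1 (ENSMUSG00000014773.13), on the minus strand of chromosome 17 from 15367354 to 15376872, encodes the ligand Delta-like 1. It was at 35.8, 30.8 and 25.3 CPM in the control libraries. The EPS libraries split, with 15.6 and 12.3 CPM in replicates 1 and 4 and 30.0 and 24.6 CPM in replicates 2 and 3. Only replicates 1, 3 and 4 of the EPS group were below every control library, so the groups overlapped. On the log2 scale EPS minus control was -0.61 (95% interval -1.30 to 0.07, adjusted p = 0.482 from limma; exact permutation test, p = 0.171). It was -0.41 without EPS replicate 4 and -0.82 without EPS replicate 2. The cycling markers, summed over 10 genes, were highest in the same EPS replicates, at 983 CPM in replicate 1 and 1418 CPM in replicate 4, against 517 and 624 CPM in replicates 2 and 3 and 308 to 432 CPM in the control. Their part in the level of Dll1 was not tested.

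Per kilobase of annotated exon, which allows levels of different genes to be compared, the ligands summed to 15.2 to 19.4 CPM per kb in the control libraries and 6.61 to 12.4 CPM per kb in the EPS libraries. Dll1 was the highest of them in the control, at 7.26 ± 1.24 CPM per kb (SD, n = 3), followed by Jag1 at 5.52 ± 0.851 and Jag2 at 4.66 ± 0.206. In the EPS group Dll1 was at 4.89 ± 1.93 CPM per kb (SD, n = 4), Jag2 at 3.21 ± 0.607 and Jag1 at 2.07 ± 0.699. Jag1 thus passed from second to last. Its share of the ligand sum was 30.9% to 32.9% in the control libraries and 13.6% to 27.1% in the EPS libraries, and the groups did not overlap.

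**Figure D2:**
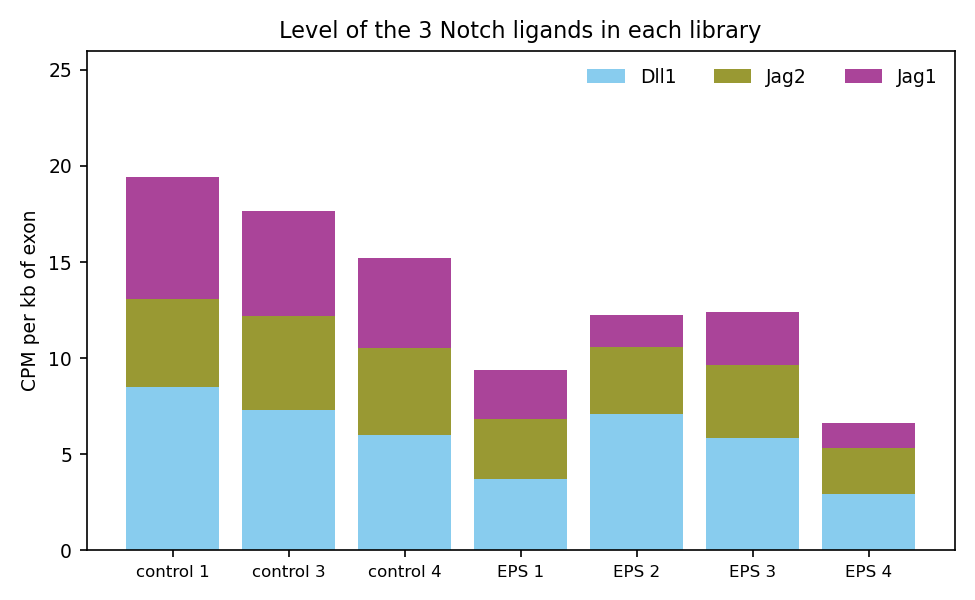
Stacked bars give the level of Dll1, Jag2 and Jag1 in each library, in CPM per kb of exon. The Jag1 segment is 4.69 to 6.39 CPM per kb in the control libraries and 1.31 to 2.77 CPM per kb in the EPS libraries.

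How Jag1 moved beside its relatives was followed on the log2 ratio of the genes within each library. Jag1 had the largest fall of the ligands, and its ratios reuse those values, so they give no independent support. The log2 ratio of Jag1 to Jag2 was -0.19 to 0.22 in the control libraries and -1.24 to -0.53 in the EPS libraries, a difference of -0.85 (exact permutation test, p = 0.0286). The log2 ratio of Dll1 to Jag1 was 0.77 higher with EPS and did not overlap between the groups (exact permutation test, p = 0.0571), but 0.49 higher without EPS replicate 2. For Dll1 to Jag2 the difference was -0.08 (exact permutation test, p = 0.80). In all, 9 pairs of ligands, of receptors or of targets were compared, and the lowest adjusted p over them was 0.257 from the exact permutation tests. With 3 libraries against 4, a single pair could not have reached a lower adjusted p over 9 pairs, so this adjustment says nothing about single pairs.

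None of the 3 receptors passed the test. Notch1 (ENSMUSG00000026923.15), on the minus strand of chromosome 2 from 26457903 to 26516663, was at 66.7, 40.4 and 41.4 CPM in the control libraries and 55.5, 34.6, 46.8 and 40.0 CPM in the EPS libraries. Its log2 fold change was -0.14 (95% interval -0.66 to 0.38, adjusted p = 0.857 from limma), and became 0.09 without control replicate 1, the library in which it was highest. The ranges of the groups largely coincided.

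Notch2 (ENSMUSG00000027878.11), on the plus strand of chromosome 3 from 98013527 to 98150361, was at 234, 137 and 133 CPM in the control and 197, 143, 269 and 154 CPM in the EPS libraries. Its log2 fold change was 0.19 (95% interval -0.44 to 0.81, adjusted p = 0.825 from limma), but 0.01 without EPS replicate 3 and 0.45 without control replicate 1. Notch3 (ENSMUSG00000038146.8), on the minus strand of chromosome 17 from 32120820 to 32166852, was at 123, 119 and 86.6 CPM in the control libraries. In the EPS libraries it was at 113, 85.2, 103 and 92.5 CPM, all but one of them within the control range. This gave a log2 fold change of -0.14 (95% interval -0.54 to 0.25, adjusted p = 0.804 from limma), which was -0.30 without control replicate 4 and -0.05 without control replicate 1. These intervals include changes of either sign, and each of them ends short of 2-fold.

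Per kilobase, Notch2 and Notch3 were the main receptor transcripts in both groups. In the control Notch2 was at 15.6 ± 5.28 and Notch3 at 13.5 ± 2.45 CPM per kb (SD, n = 3), a difference within their spread, while Notch1 was at 3.48 ± 1.05 CPM per kb. In the EPS group they were at 17.7 ± 5.27, 12.2 ± 1.49 and 3.11 ± 0.632 CPM per kb (SD, n = 4). The log2 ratio of Notch1 to Notch2 was 0.33 lower with EPS (exact permutation test, p = 0.0857). Without EPS replicate 3, where Notch2 was highest, this difference was -0.19. Antisense transcripts overlap Notch1 and Notch3 in the annotation (0610009E02Rik and Gm17276), and each was under 0.4 CPM in every library.

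Of the 3 target genes, none was called. Hes1 (ENSMUSG00000022528.8), on the plus strand of chromosome 16 from 30064384 to 30067796, is the best known direct target of the receptors. It was at 46.3, 70.35 and 70.0 CPM in the control libraries and 39.8, 64.3, 32.8 and 39.4 CPM in the EPS libraries. EPS replicate 2 lay among the control libraries, and the other 3 lay below them. The log2 fold change was -0.51 (95% interval -1.08 to 0.06, adjusted p = 0.482 from limma; exact permutation test, p = 0.143). When single libraries were left out, it ran from -0.71 without control replicate 1 to -0.39 without EPS replicate 3.

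Heyl (ENSMUSG00000032744.4), on the plus strand of chromosome 4 from 123233556 to 123249875, was at 38.0, 39.8 and 25.7 CPM in the control libraries. The EPS libraries were at 25.7, 21.2, 26.9 and 15.9 CPM, and overlapped the control only through control replicate 4. The log2 fold change was -0.60 (95% interval -1.14 to -0.06, adjusted p = 0.375 from limma; exact permutation test, p = 0.143). Without control replicate 4 it was -0.79 and the groups did not overlap, while without EPS replicate 4 it was -0.45 and without control replicate 3 it was -0.49. Hey1 (ENSMUSG00000040289.8), on the minus strand of chromosome 3 from 8663359 to 8667256, was the lowest member, at 2.97, 3.91 and 0.769 CPM in the control and 2.19, 1.85, 2.15 and 1.81 CPM in the EPS libraries. The value of control replicate 4 rests on 17 reads, where the other 6 libraries had 34 to 65. The direction of Hey1 turned on single control libraries. Its log2 fold change of -0.12 (95% interval -0.88 to 0.63, adjusted p = 0.896 from limma) was -0.56 without control replicate 4, 0.18 without control replicate 3 and 0.02 without control replicate 1.

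Per kilobase, Hes1 had the highest mean of the 10 members in both groups, at 30.5 ± 6.75 CPM per kb (SD, n = 3) in the control and 21.6 ± 6.80 CPM per kb (SD, n = 4) with EPS. Heyl was at 5.02 to 7.78 CPM per kb in the control and 3.11 to 5.27 CPM per kb with EPS, and Hey1 at 0.781 ± 0.494 and 0.612 ± 0.0604 CPM per kb (SD). In the EPS group the means of Hes1 and Notch2 lay within their spread, and in EPS replicate 3 Notch2 was higher, at 24.9 against 16.1 CPM per kb. In the control, Dll1, Heyl and Jag1 followed one another within their spread. In the EPS group Jag1 was ninth of the 10 members, above Hey1 alone.

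Numb (ENSMUSG00000021224.15), on the minus strand of chromosome 12 from 83794034 to 83921934, was at 15.2, 18.2 and 17.7 CPM in the control libraries and 15.6, 15.7, 10.05 and 14.5 CPM in the EPS libraries. EPS replicate 3 was the low library. The log2 fold change was -0.28 (95% interval -0.78 to 0.21, adjusted p = 0.666 from limma), and -0.15 without that library.

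The low values were not spread evenly over the libraries. EPS replicate 4 was the lowest of the 7 libraries for 4 members, Dll1, Jag1, Jag2 and Heyl, while control replicates 1 and 3 were the highest for 9 members between them. Leaving out control replicate 4 raised the number of members whose groups do not overlap from 2 to 6, all lower with EPS (Notch3, Dll1, Jag1, Jag2, Hey1 and Heyl), and the share of all genes that were lower without overlap to 6.53%. Without control replicate 1 there were 5, of which Notch2 was higher with EPS and 4 were lower, where 5.004% of all genes were lower without overlap. Without EPS replicate 2 there were 4, all lower, where 5.11% of all genes were. Jag1 and Jag2 were among them each time, which was fixed in advance. Groups that do not overlap with all 7 libraries cannot overlap with fewer. With all 7 libraries, 1485 of the 19144 genes were higher without overlap and 546 lower. The share higher was not counted without control replicate 1.

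**Figure D3:**
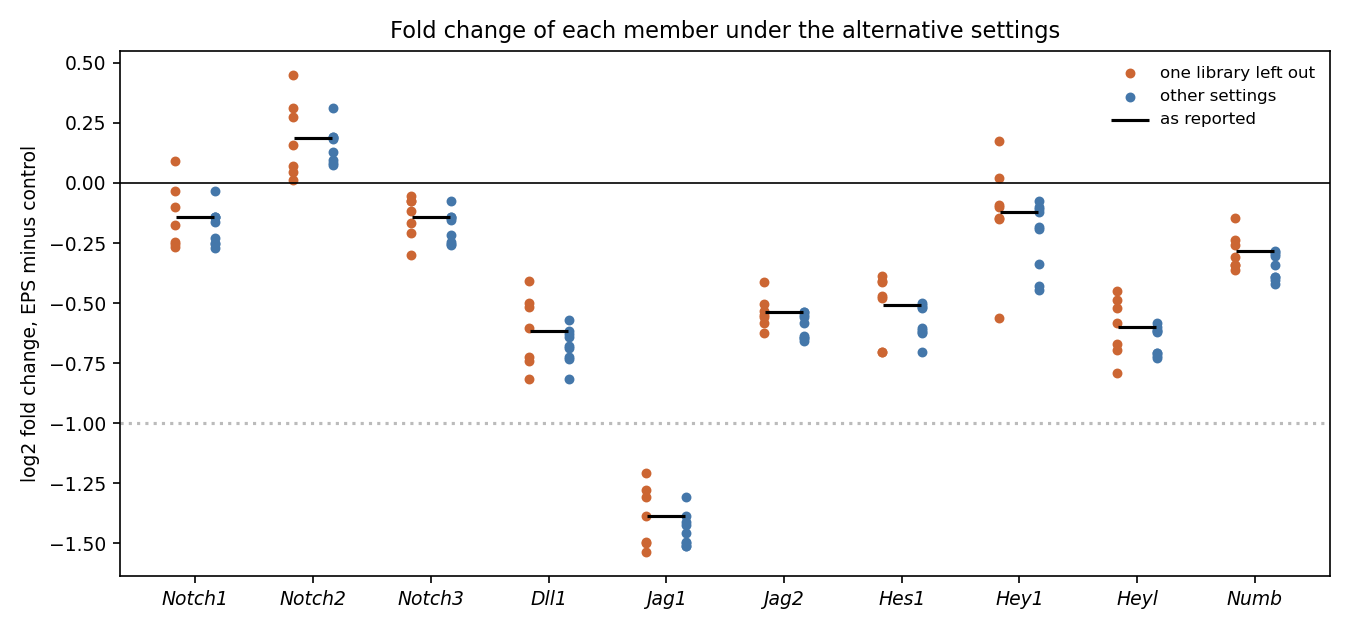
Points give the log2 fold change of each member, EPS minus control, with 1 library left out (left of each name) and under the other settings (right), the black line is the value reported, and the dotted line marks 2-fold. Jag1 stays below -1, at -1.54 to -1.21, while Notch1 and Hey1 cross 0 when 1 control library is left out.

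Around the members, a list of 56 other genes of the pathway was followed, of which 54 were tested and 45 had a mean of at least 1 CPM. In limma 0 were called and 0 had an adjusted p under 0.05, and at an unadjusted P under 0.05 there were 2 higher and 1 lower of the 54, where 8.4% of all genes were higher and 3.21% lower. The edgeR test called 1 of the 54 with TMM scaling and 2 without it, where it called 3.29% and 3.3% of all genes, and DESeq2 called 0, where it called 3.06%. Their median log2 fold change was 0.01, with 29 above 0 and 25 below.

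Fbxw7, a ubiquitin ligase subunit that marks the active receptor fragment for degradation, was the lower one. It was at 72.6, 79.1 and 50.5 CPM in the control libraries and 40.8, 48.6, 45.5 and 32.9 CPM in the EPS libraries, which did not overlap, and the log2 difference was -0.66 (95% interval -1.12 to -0.20, adjusted p = 0.242 in limma). Over the alternatives its adjusted p ran from 0.0295 in DESeq2, the one setting in which it was under 0.05, to 0.51 in limma with the replicate block, and in none did it reach 2-fold. Aph1c, a subunit of gamma-secretase, the protease that releases the receptor fragment, was at 0.497 to 1.14 CPM in the control and 1.16 to 2.09 CPM in the EPS libraries, 0.65 higher on the log2 scale (95% interval 0.22 to 1.08, adjusted p = 0.227 in limma). It is a close copy of Aph1b, and reads could have been split between the genes. Over the alternatives the value of Aph1c ran from 0.56 without control replicate 4 to 1.23 in edgeR without TMM. Aph1c was over 2-fold with a pseudocount of 0.1 and in the count tests, but was called in none of these settings. Neurl1b, a ubiquitin ligase that acts on ligands, had the largest value on the log2(CPM + 1) scale. Its log2 fold change was 1.03 (95% interval -0.18 to 2.24, adjusted p = 0.504 from limma). With a pseudocount of 0.1 it was 1.13, below Aph1c at 1.18 and Mfng at 1.58. The EPS libraries of Neurl1b were at 18.1, 4.53, 17.1 and 22.9 CPM. Its control libraries were at 11.4, 4.03 and 4.88 CPM, so the groups overlapped through EPS replicate 2. Without that library it was called, at 1.498 on the log2 scale, and without the other libraries in turn it was not called and went as low as 0.78, without control replicate 3.

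In the remaining roles, the gene with the largest value was not called. The coactivator Maml2 was at a log2 fold change of -0.39, Hes6, a relative of Hes1 that counteracts it, at -0.39, the corepressor Spen at 0.26 and Pofut1, which adds fucose to the receptors, at 0.21 (adjusted p from 0.538 to 0.72 in limma). Single libraries moved these values. Without control replicate 4 Maml2 was at -0.26 and Hes6 at -0.13, and without control replicate 3 Spen was at 0.13 and Pofut1 at 0.12. Other libraries enlarged them when left out. Without control replicate 1 Maml2 was at -0.56, Hes6 at -0.54 and Spen at 0.42, and without EPS replicate 2 Pofut1 was at 0.35. Rbpj itself was at 37.7, 40.3 and 20.1 CPM in the control and 36.7, 32.4, 36.5 and 35.6 CPM in the EPS libraries.

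**Figure D4:**
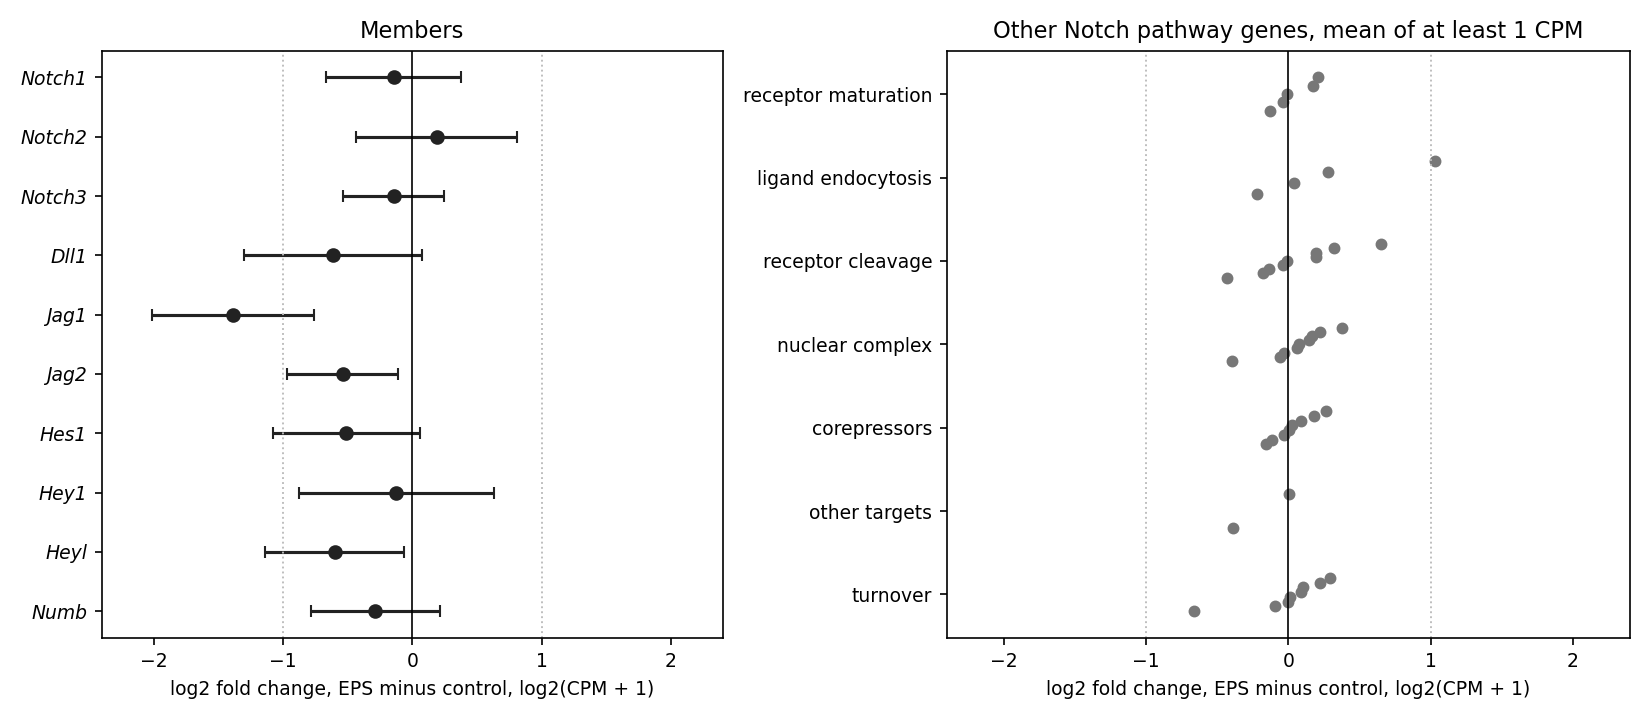
Log2 fold changes on the log2(CPM + 1) scale, EPS minus control, for the 10 members with 95% intervals (left) and for the other pathway genes with a mean of at least 1 CPM, 1 point each, by role (right); dotted lines mark 2-fold. The ligands and Hes1 and Heyl lie between -1.39 and -0.51, while the median of the other genes is near 0.

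Markers of cell state moved with the groups as well. Of 10 cycling markers, 3 were called as higher with EPS (Birc5, Kif11 and Ube2c), where 185 of all 19144 genes tested were. All 10 had log2 fold changes above 0, from 0.78 to 1.59. In limma 9 of the 10 were higher at an unadjusted P under 0.05, where 8.4% of all genes were. Under 16 alternatives Ube2c was called in 15, Kif11 in 10 and Birc5 in 8. With the replicate block none of them was called, though their log2 fold changes were 1.62, 1.47 and 1.31, each above the value reported. Against 0.439% of all genes, 1 of 9 markers of undifferentiated myoblasts was called as lower. This was Vcam1, an adhesion molecule of muscle stem cells, which was at 90.5 to 119 CPM in the control libraries and fell to 30.6 to 56.3 CPM in the EPS libraries (limma, adjusted p = 0.0914). Vcam1 was called in 15 of 16 alternatives and lost its call with the replicate block, where its log2 fold change was -1.15 (limma, unadjusted P = 0.0176). At an unadjusted P under 0.05, 3 of the 9 were lower, Vcam1, Id1 and Id3, where 3.21% of all genes were. Id1 and Id3, inhibitors of myogenic helix-loop-helix factors, had log2 fold changes of -1.09 and -0.96, and the groups of Id1 did not overlap. The summed level of the 9 was 420 to 641 CPM in the control and 308 to 366 CPM in the EPS libraries, without overlap. Pax7, which defines muscle stem cells, was at 16.3 to 28.1 CPM and 15.3 to 22.2 CPM. Of the 10 myotube markers 0 were called in limma, and 1, Actn2 of the sarcomeric Z-disc, was lower at that threshold. The part of these markers in the levels of Jag1 and the other members was not tested.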

How the data were processed

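Poly(A) RNA of 3 control and 4 EPS libraries was sequenced as paired-end reads with a directional kit, and mapped by STAR 2.5.4b to GRCm38, per the submitters' processing notes. The values deposited by the authors are CPM, the reads of each gene scaled to the total over the 26607 listed genes. The counter, annotation and strand setting are not given in the sources used here. The 19144 genes with a read in any library were tested as log2(CPM + 1) with limma 3.58.1 in R 4.3.3 (trended empirical Bayes, EPS against control, no covariate). A gene was called at an unadjusted P under 0.01 and over 2-fold, the thresholds of the study's results. The study names edgeR, which needs counts. All values (100%) were whole reads within 0.01, so the recovered reads were also tested in edgeR 4.0.16 and in DESeq2 1.42.0, which called 629 and 585 genes against 269 in limma. The tests were tried on simulated data. Single genes were also given an exact two-sided permutation test over 35 regroupings. Coordinates and exon lengths are those of GENCODE M21, and upstream bases those of RefSeq.

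The members and gene lists were chosen with earlier results of these data known. Named beside the members are other pathway genes that were called, in each role the gene with the largest change at a mean of at least 1 CPM, and of the marker lists the highest gene and those at 0 throughout. Mfng, Rbpj, Pax7, the low family members and the few genes behind small counts were singled out after their values were seen. Adgre1 is listed as Emr1. Alternatives were other pseudocounts, a minimum mean, quantile and median-of-ratios scaling, the count tests, a stricter P, the replicate block and leaving out each library.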

Additional observations from a re-analysis of the deposited data

Results flagged for a closer look

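Of 22 members and named genes, 1 had an EPS library far from the other 3. Pofut1 was at 50.7 CPM in EPS replicate 2 and at 72.4 to 76.3 CPM in the others, while the control libraries were at 51.7 to 69.4 CPM. If values were normally spread, about 1 group in 20 would show such a gap, so among 22 genes it is not unusual.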

How the results depend on the processing

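Jag1 was called in all 17 alternatives, P under 0.001 included, with a log2 fold change from -1.54 to -1.21. The number of members with an adjusted p under 0.05 was 0 in limma as reported and 1, Jag1, with a pseudocount of 0.1, with a minimum mean of 1 CPM, in edgeR with or without TMM and in DESeq2. The share of all genes under 0.05 was 0.141% as reported, 0.554% with that pseudocount and 0.987% with that minimum mean. In edgeR this share was 1.51% with and 1.48% without TMM, and in DESeq2 2.6%. The members not overlapping numbered 2 to 6 with 1 library left out, all lower but Notch2 without control replicate 1, while 3.39% to 6.53% of all genes were lower without overlap. Leaving out a library can only keep or raise the number of members not overlapping. Of the other pathway genes, 0 were called as reported, 1 (Mfng) with a pseudocount of 0.1 or in edgeR with TMM, 2 (with Neurl1b) in edgeR without TMM, and 0 to 1 with a library left out (Neurl1b without EPS replicate 2). The cause of these differences was not tested. The direction changed with a library left out in Notch1, from -0.27 to 0.0898, and in Hey1, from -0.56 to 0.18, and in no other member. Over genes at 1 CPM or more the median shift on the log2 scale was 0.10 as deposited, 0.0052 when quantile-normalized and -0.0048 under median-of-ratios scaling, and 9 members were below it each time. Called genes were higher with EPS in 68.8% as deposited and in 51.6% and 52.8% after these scalings. The number of genes called was 269 as reported, 601 with a pseudocount of 0.1, 631 in edgeR without TMM and 106 at P under 0.001. With the replicate block, which rests on 3 pairs, 161 genes were called, Jag1 among them at -1.31. Libraries of the same number had deviations correlated over 12256 genes at 0.25, -0.45 and 0.068 for numbers 1, 3 and 4, so the numbers were not taken as pairs. Between libraries of different numbers the correlations ran from -0.46, control replicate 1 with EPS replicate 2, to 0.59, control replicate 1 with EPS replicate 3. What these libraries share was not tested.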

Other observations

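The rest of the ligand and receptor family was low in these libraries. Dlk2, a membrane protein related to the ligands, reached 48 reads in control replicate 4, against 8 and 9 in the other control libraries and 3 to 18 with EPS, and Dner, another relative, had 0 to 4 reads. Notch4 was at 0.183 to 0.690 CPM, Dll3 and Dll4 had at most 1 read in each library, and Dlk1, a relative of Dlk2, had 0 reads in all 7. Among the targets, Hes5 had 0 reads in all 7 libraries and Hey2 had 0 to 7. Counts of 0 allow up to 3 reads, or 0.136 to 0.181 CPM by library, for counting error only. Mfng, an enzyme that modifies the sugars of the receptors, had 0 reads in each control library while EPS replicates 1 to 4 had 3, 6, 5 and 3. Its groups did not overlap, but these levels are near the 3 reads that a count of 0 allows, and control replicate 4 holds few genes at such counts.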
